A study of Mus musculus with 11 samples.

Results

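The delta protocadherins are non-clustered protocadherins, cell surface proteins of the cadherin superfamily that are encoded by separate genes scattered over the genome. Transcripts of 8 of them, Pcdh1, Pcdh7, Pcdh8, Pcdh9, Pcdh10, Pcdh17, Pcdh18 and Pcdh19, were compared between the main olfactory epithelium (MOE) of wild type mice and of Bcl11b knockout (KO) mice. Every probe set that the annotation of the array assigns to exactly 1 of these symbols was taken, which gave 23 probe sets of 45037 and 8 genes of 18193 named alone by a probe set. The family is divided by the cytoplasmic part of the protein into a delta1 group (Pcdh1, Pcdh7 and Pcdh9 here) and a delta2 group (Pcdh8, Pcdh10, Pcdh17, Pcdh18 and Pcdh19). Their extracellular cadherin repeats mediate weak contacts between cells that carry the same protein, and their cytoplasmic tails bind regulators of the cytoskeleton and protein phosphatases. In the nose, olfactory sensory neurons (OSNs) express them in different combinations, and some of them take part in the sorting of OSN axons into glomeruli of the olfactory bulb.

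The data came from 11 Affymetrix mouse expression arrays, each of RNA from the whole MOE of 1 newborn (postnatal day 0) BALB/c mouse, 5 wild type and 6 homozygous for a conventional Bcl11b KO, which removes the gene in every cell of the body from fertilization onwards. Bcl11b encodes a zinc finger transcription factor that postmitotic OSNs express. All wild type mice and 4 KO mice were male, and KO 3 and KO 6 were female. The whole tissue also holds supporting cells, basal cells, glia and the connective tissue beneath, so neither group is a pure population of OSNs.

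Signals are intensities scaled to the GAPDH probe set, which reads 10000 on every array. They were compared as log2(signal + 16), and each log2 change is KO minus wild type on that scale. Median signals lay between 56.6 and 85.7 on the wild type arrays and between 62 and 86.5 on the KO arrays. The spiked poly-A controls split the arrays into a set with higher signals (WT 1, WT 2, KO 4, KO 5 and KO 6) and a set with lower signals (WT 3 to WT 5 and KO 1 to KO 3), treated here as an inferred labelling batch that the labels do not name. The GAPDH 3'/5' ratio, which rises as RNA is degraded, was highest on KO 3 (2.696) and KO 2 (2.416). Bcl11b itself was lower on all 4 of its probe sets, with log2 changes between -1.88 and -1.33 and no overlap of the groups (limma, adjusted p at most 0.014). Of markers picked for the labelled tissue, mean wild type signals were 586 for Omp of mature OSNs, 2737 for Gap43 of immature OSNs and 5962 for Cyp2g1 of sustentacular cells. These signals were set against no threshold and do not test the label.

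The promoters of Pcdh9, Pcdh17 and Pcdh19 were picked from the array values, because their estimates lay in opposite directions. The 2 bright probe sets of Pcdh9 had higher estimates in the KO, and each probe set of Pcdh17 and Pcdh19 a lower one. None of these probe sets had an adjusted p under 0.05 (limma, smallest 0.113). Each window runs from 250 bases before to 50 bases after the start of the gene, read 5′ to 3′ on the strand of the gene (RefSeq, GRCm38.p6), and capitals mark the CCAAT box, a common promoter element, searched on both strands as CCAAT and its reverse complement ATTGG.
Pcdh9, chr14:93890630-93890929, minus strand: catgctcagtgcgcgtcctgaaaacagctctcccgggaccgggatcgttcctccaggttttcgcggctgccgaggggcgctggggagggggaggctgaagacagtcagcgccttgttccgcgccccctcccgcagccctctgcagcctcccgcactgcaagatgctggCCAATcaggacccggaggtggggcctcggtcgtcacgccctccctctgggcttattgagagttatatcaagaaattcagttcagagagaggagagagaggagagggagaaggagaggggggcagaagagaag
Pcdh17, chr14:84443313-84443612, plus strand: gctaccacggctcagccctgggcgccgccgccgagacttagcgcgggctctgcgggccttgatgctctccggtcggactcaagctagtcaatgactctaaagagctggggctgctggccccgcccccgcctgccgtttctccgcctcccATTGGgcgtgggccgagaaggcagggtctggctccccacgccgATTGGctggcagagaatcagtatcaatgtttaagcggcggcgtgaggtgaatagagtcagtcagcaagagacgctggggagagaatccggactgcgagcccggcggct
Pcdh19, chrX:133688944-133689243, minus strand: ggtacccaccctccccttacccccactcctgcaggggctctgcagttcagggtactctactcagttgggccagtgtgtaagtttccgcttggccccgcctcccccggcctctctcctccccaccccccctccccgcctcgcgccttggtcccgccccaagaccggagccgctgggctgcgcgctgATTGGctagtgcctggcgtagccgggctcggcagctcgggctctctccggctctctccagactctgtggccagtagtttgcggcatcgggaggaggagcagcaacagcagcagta

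Pcdh9 holds 1 such box, starting 82 bases before the gene start. In Pcdh17 there are 2, at 101 and 58 bases before the start, and in Pcdh19 there is 1, at 65 bases before it. Of the 7 member promoters searched (all but that of Pcdh1), 6 hold at least 1 CCAAT box and 2 hold 2 or more. Of 32851 mouse promoter windows, 37.4% hold at least 1 and 11.7% hold 2 or more. The exception is Pcdh7. The GC-rich word GGCCGG, searched on both strands, is in 2 of the 7 (Pcdh18 and Pcdh19) and in 19.0% of all windows. The TATA box TATAAA, searched on the gene strand, is in the promoter of Pcdh8 alone, 30 bases before the start, and in 8.32% of all windows. The member promoters have GC contents from 54.3% to 67.7%, against a median of 52.7% over all windows. These matches describe the letters of the windows. The motifs were chosen after the member sequences had been read, and a match is found without regard to the arrays.

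None of the 21 tested probe sets of the family passed the threshold between KO and wild type (limma, adjusted p from 0.113 to 1.0), where 153 of 33662 tested probe sets (0.455%) did. At an unadjusted p under 0.05 there were 10, from 6 of the 8 genes. Of these, 3 were higher in the KO (14.3% of 21, background 4.47%) and 7 were lower (33.3%, background 2.45%). The higher ones were 1 probe set of Pcdh1 and 2 of Pcdh9. The lower ones belonged to Pcdh17 (2), Pcdh19 (3), Pcdh7 (1) and Pcdh10 (1). Probe sets assigned to 1 gene are not independent, and whether they measure the same transcript was not tested. Over all 21 the median log2 change was -0.075, beside 0.047 over all tested probe sets, and 7 estimates lay above 0 and 14 below. In whole tissue, fewer cells of a type and less RNA per cell cannot be told apart.

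**Figure D1:**
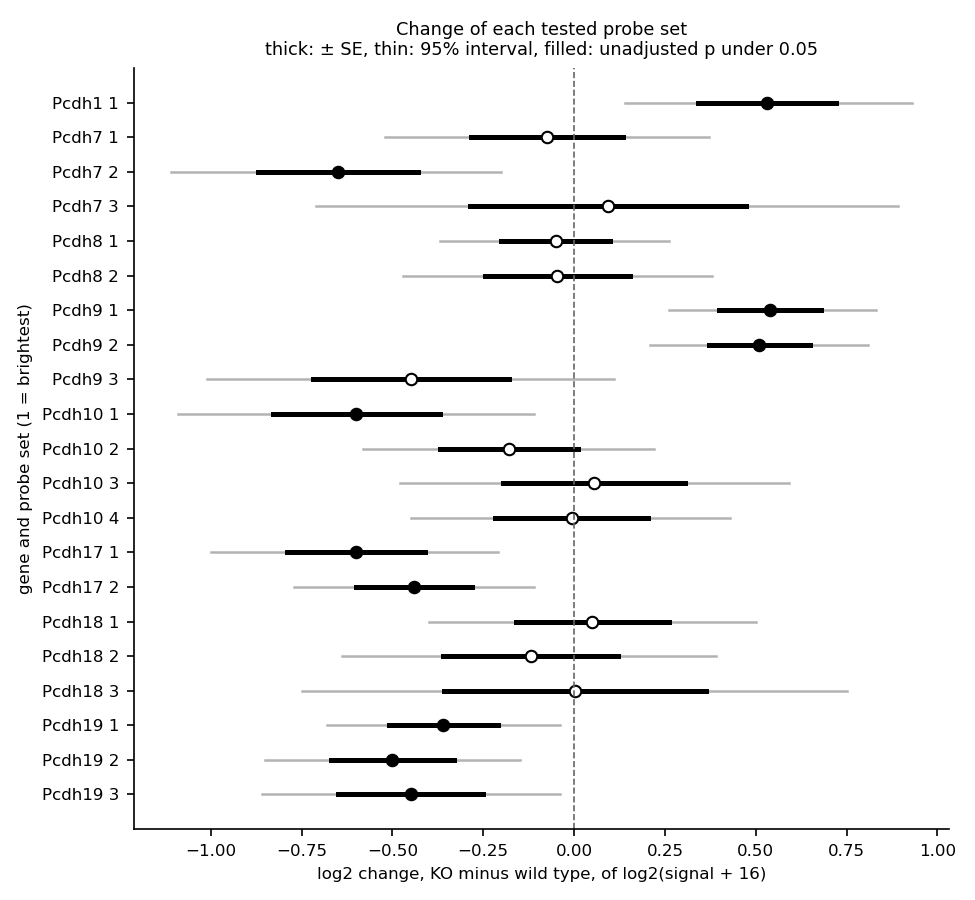
Log2 change (KO minus wild type, of log2(signal + 16), horizontal axis) of the 21 tested probe sets, numbered from the brightest within each gene (vertical axis). Points are limma estimates, thick bars ± SE and thin bars 95% intervals. Filled points, 3 to the right of 0 and 7 to the left, have an unadjusted p under 0.05, and none has an adjusted p under 0.05.

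Pcdh9, a delta1 member linked to the growth of cortical neurons, had the smallest p of the family. On its brightest probe set (1442659_at) the wild type signals were 460.5, 506.4, 432.1, 351.4 and 476.1 in WT 1 to WT 5, and the KO signals were 663.1, 535.3, 621.9, 665.4, 699.3 and 734.9 in KO 1 to KO 6. All 6 KO arrays lay above all 5 wild type arrays, as was the case in this direction for 0.716% of all tested probe sets. It was the sole member probe set whose groups did not overlap, and none lay apart in the lower direction (background 0.573%). The wild type mean was 445 ± 59.0 (SD, n = 5) and the KO mean 653 ± 69.2 (SD, n = 6). This is a log2 change of 0.54 ± 0.14 (SE) with a 95% interval from 0.26 to 0.83 (limma, unadjusted p = 0.000915, adjusted p = 0.113). Within the batch of higher and that of lower poly-A controls the change was 0.52 in each.

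A separate Pcdh9 probe set (1429861_at) gave nearly the same value. Its wild type signals were 342.8, 568, 385, 383.7 and 408, and its KO signals were 638.4, 587.6, 611.5, 587.6, 504.4 and 638.7. Here WT 2 and KO 5 overlapped, and the other arrays of the groups were apart. The log2 change was 0.51 ± 0.14 (SE; limma, unadjusted p = 0.00229, adjusted p = 0.193), at 0.37 and 0.62 within the batches. The remaining, dim probe set (1458269_at) had an estimate of the opposite sign, -0.45 ± 0.27 (SE; limma, adjusted p = 0.865), with means of 34.0 ± 13.3 in wild type (SD, n = 5) and 21.2 ± 11.4 in KO (SD, n = 6). Set against the brightest probe set on the same array, this dim probe set differed in its change by 0.99 (exact two-sided permutation test, p = 0.00433, adjusted p = 0.0866 over the 20 pairs of probe sets of a gene). The 2 bright probe sets differed from each other by 0.03 (exact permutation test, p = 0.842).

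Pcdh1, a delta1 member best known from airway epithelium, was represented by 1 probe set (1452294_at). Wild type signals were 57.6, 78.2, 60.9, 69 and 75.5, and KO signals were 80.3, 141.9, 69.1, 105.2, 114 and 140.7. Of the 6 KO arrays, 5 lay above the highest wild type array, and KO 3 lay inside the wild type range. The log2 change was 0.53 ± 0.19 (SE; limma, unadjusted p = 0.0109, adjusted p = 0.424), and it was 0.70 within the batch of higher and 0.37 within that of lower poly-A controls.

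The probe sets of Pcdh7, also of the delta1 group and a gene with a known part in the growth of retinal axons, did not give 1 answer. On the second brightest (1449249_at) the wild type signals were 450.3, 657, 482.9, 392.3 and 448.4 and the KO signals 208.2, 316.5, 177, 335.4, 392.7 and 455.2. There 4 of 6 KO arrays lay below the lowest wild type array, with KO 1 and KO 3 the lowest, and the log2 change was -0.65 ± 0.22 (SE; limma, unadjusted p = 0.00752, adjusted p = 0.359). On the brightest (1456214_at) the arrays ran from 282.6 to 674.9 in wild type and from 298.3 to 540.7 in KO, and the log2 change was -0.075 with a 95% interval from -0.52 to 0.37. The changes of these probe sets differed by 0.58 on the same arrays (exact permutation test, p = 0.0498, adjusted p = 0.32). The remaining one (1427592_at) was dim, with signals from 4.5 to 57.6 over all arrays.

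**Figure D2:**
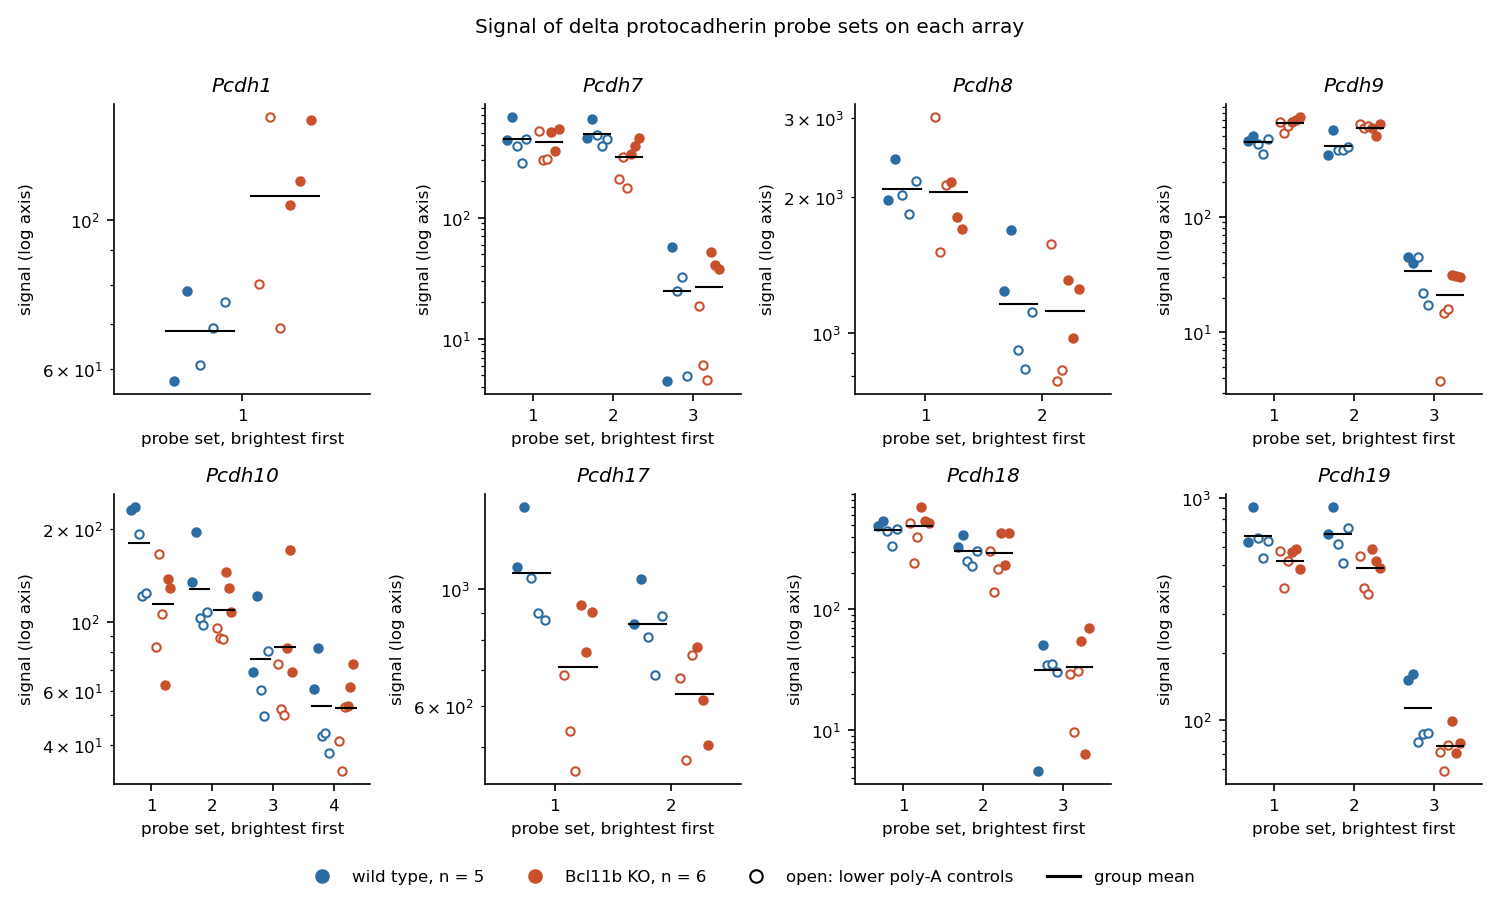
Signal scaled to GAPDH (log axis) of each tested probe set of the 8 genes on each array, in the order of replicates, with probe sets numbered from the brightest. Blue points are 5 wild type arrays, red points 6 KO arrays, filled points the batch of higher poly-A controls and lines the group means. On Pcdh9 probe set 1 the KO arrays (535.3 to 734.9) lie above the wild type arrays (351.4 to 506.4), while on Pcdh17 probe set 1 they reach lower (450.7 to 930.9 against 872.8 to 1432.4).

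Pcdh17 was the delta2 member of smallest p. It is known for roles in axon extension and in the assembly of presynaptic terminals. Its brightest probe set (1436920_at) read 1103.1, 1432.4, 1051.3, 899.4 and 872.8 in wild type and 685.6, 536.4, 450.7, 930.9, 760.3 and 905.2 in KO. All KO arrays were below the wild type median, 4 of 6 were below every wild type array, and KO 4 and KO 6 overlapped with WT 4 and WT 5. Group means were 1072 ± 224 (SD, n = 5) and 712 ± 194 (SD, n = 6). Their log2 change was -0.60 ± 0.19 (SE), with a 95% interval from -1.0 to -0.21 (limma, unadjusted p = 0.00496, adjusted p = 0.302). On the other probe set (1453070_at) the signals were 857.9, 1045.1, 811, 686.3 and 890.8 in wild type and 676.1, 472.5, 749.8, 776.8, 613.8 and 505.5 in KO, again with 4 of 6 KO arrays below every wild type array. Its log2 change was -0.44 ± 0.16 (SE; limma, unadjusted p = 0.0112, adjusted p = 0.431), a value near that of the first (shift of -0.16, exact permutation test, p = 0.561). By batch the changes were -0.54 and -0.75 on the first and -0.59 and -0.34 on the second. Without KO 2 and KO 3, the lowest KO arrays of the first probe set and those of highest GAPDH 3'/5' ratio, the changes were -0.37 and -0.41.

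Pcdh19, an X-linked gene whose human counterpart is mutated in a form of epilepsy and whose protein associates with N-cadherin, had 3 probe sets, each with a negative estimate. The probe set of smallest p (1437360_at) read 687.7, 905.8, 621.2, 508.2 and 729.1 in wild type and 547.9, 390.9, 366.8, 587.2, 517.5 and 483.9 in KO. All 6 KO arrays were below the wild type median and 3 were below every wild type array. The log2 change was -0.50 ± 0.17 (SE; limma, unadjusted p = 0.00775, adjusted p = 0.364). The brightest probe set (1455145_at) had a log2 change of -0.36 ± 0.15 and the dimmest (1444422_at) of -0.45 ± 0.20 (limma, adjusted p = 0.629 and 0.636), the latter at -0.81 and -0.25 within the batches. Because the gene is X-linked, the KO females were set beside the KO males. On probe set 1437360_at KO 3 and KO 6 read 366.8 and 483.9 and the 4 KO males 390.9 to 587.2, and on 1455145_at the females read 518.7 and 478 and the males 393.4 to 585.6.

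Pcdh10, which OSNs express in an activity-dependent manner, had 6 probe sets, of which 2 (1442565_at and 1444301_at, mean signals 12.5 and 11.5) were below the minimum mean signal of 20 and were not tested. The brightest (1421311_at) read 229.2, 234.9, 192, 121.4 and 123.7 in wild type and 82.9, 166.5, 106.4, 62.6, 138.2 and 128.5 in KO. All KO arrays lay below the wild type median, and 3 lay inside the wild type range. The log2 change was -0.60 ± 0.23 (SE; limma, unadjusted p = 0.019, adjusted p = 0.534). It was -1.04 in the batch of higher poly-A controls and -0.28 in the other, and the difference between the batches was not tested. The other tested probe sets of Pcdh10 had log2 changes of -0.18, 0.055 and -0.0072. On the same arrays the change of the brightest differed from theirs by -0.42, -0.65 and -0.59 (exact permutation tests, p = 0.19, 0.108 and 0.0649). A p that misses the threshold does not show that these probe sets agree. The value of -0.60 was that of the brightest probe set alone.

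Pcdh8 and Pcdh18 gave no difference at an unadjusted p under 0.05. Pcdh8, also called arcadlin, is induced by neuronal activity and regulates N-cadherin at synapses. Its probe sets (1447825_x_at and 1417051_at) had means of 2089 ± 231 and 1156 ± 338 (SD, n = 5) in wild type and 2057 ± 533 and 1120.0 ± 312 (SD, n = 6) in KO. The KO arrays of the first ran from 1514.6 in KO 2 to 3018 in KO 1, wider than the wild type range of 1832.7 to 2438.7. The 95% intervals of the log2 change were -0.37 to 0.26 and -0.47 to 0.38. Pcdh18, which binds the adaptor protein Dab1, had log2 changes of 0.05, -0.12 and 0.0017 on 3 probe sets (1422889_at, 1422890_at and 1430427_a_at). Their 95% intervals were -0.4 to 0.5, -0.64 to 0.39 and -0.75 to 0.75. On the first, KO 2 (243.3) and KO 4 (700.2) lay to either side of the wild type range of 333.8 to 539.4.

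To ask whether members differed from each other in their response, the brightest tested probe set of each gene was set against that of each other gene on the same array. A factor that scales a whole array cancels in such a difference, apart from the pseudocount. The size of a difference in wild type has no meaning of its own, since signals of different probe sets are not comparable, and only its shift between the groups was tested. Of 28 pairs, 13 shifted at an unadjusted p under 0.05 and 11 after adjustment over the 28 pairs (exact two-sided permutation tests over the 462 divisions of the arrays, for which 0.00216 is the smallest possible p). The 13 pairs are 46.4% of the 28, where 11.7% of all pairs of genes tested in the same way had an unadjusted p under 0.05. The 28 pairs come from 8 values per array and are not independent of each other. The members were known from earlier results when the pairs were made, so the adjusted values are not independent evidence. With the GAPDH 3'/5' ratio as covariate 7 pairs passed, and with males only 0 passed and 12 had an unadjusted p under 0.05.

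The difference Pcdh9 minus Pcdh17 lay between -1.47 and -0.85 on the wild type arrays and between -0.47 and 0.45 on the KO arrays, without overlap. It shifted by 1.14 (exact permutation test, p = 0.00216, adjusted p = 0.0152), and by 1.06 and 1.27 when each batch was taken alone. Pcdh9 minus Pcdh19 lay between -0.82 and -0.42 in wild type and between 0.20 and 0.60 in KO, a shift of 0.90 with the same p, at 0.99 and 0.83 within the batches. Against Pcdh10 the shift of Pcdh9 was also 1.14 (p = 0.00649, adjusted p = 0.0242, exact permutation test), at 1.56 and 0.80 within the batches.

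Pcdh1 shifted in the same direction as Pcdh9, by 1.13 against Pcdh10, by 1.14 against Pcdh17 and by 0.89 against Pcdh19 (exact permutation tests, p = 0.00216, 0.00216 and 0.00866). Within the batches these shifts were 1.74 and 0.66, 1.23 and 1.13, and 1.17 and 0.68. With the stated direction of each difference, Pcdh7 minus Pcdh9 shifted by -0.62, Pcdh8 minus Pcdh9 by -0.59, Pcdh9 minus Pcdh18 by 0.49, Pcdh7 minus Pcdh17 by 0.53 and Pcdh17 minus Pcdh18 by -0.65 (exact permutation tests, adjusted p = 0.0242, 0.0242, 0.0441, 0.0242 and 0.0242). For Pcdh7 minus Pcdh17 the batches gave 0.30 and 0.73. Among Pcdh10, Pcdh17 and Pcdh19, and between Pcdh1 and Pcdh9, no pair of brightest probe sets had an unadjusted p under 0.05. The shifts were -0.01 for Pcdh1 minus Pcdh9, 0.01 for Pcdh10 minus Pcdh17, -0.24 for Pcdh10 minus Pcdh19 and -0.25 for Pcdh17 minus Pcdh19 (exact permutation tests, p = 0.978, 0.987, 0.45 and 0.203). The value of Pcdh10 minus Pcdh17 was -0.51 in one batch and 0.47 in the other, and a p that misses the threshold does not show that genes respond alike. With permutation only within the batches, the 11 shifts had p from 0.005 to 0.015, where 0.005 is the smallest possible.

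Which probe set stands for a gene mattered for some of these pairs. With the second brightest tested probe set of each gene 10 pairs passed, and with the mean of its tested probe sets 9 passed. The 6 pairs of Pcdh1 or Pcdh9 with Pcdh10, Pcdh17 or Pcdh19 passed in each case. Pcdh1 has 1 probe set, so in its pairs only the other gene was read on other probe sets. Pcdh9 minus Pcdh17 shifted by 0.95 and 0.72 and Pcdh9 minus Pcdh19 by 1.01 and 0.64. The shifts against Pcdh10 were smaller, at 0.69 and 0.38 for Pcdh9 and 0.71 and 0.72 for Pcdh1. Pcdh7 minus Pcdh17 shifted by -0.21 and 0.31 and no longer passed (exact permutation tests, adjusted p = 0.632 and 0.179). Pcdh8 minus Pcdh9, Pcdh9 minus Pcdh18 and Pcdh17 minus Pcdh18 also passed with the brightest probe sets alone, and Pcdh7 minus Pcdh9 passed with the second brightest (-1.16) but not with the mean (-0.41). Pcdh1 minus Pcdh7 (1.19 and 0.75) and Pcdh8 minus Pcdh19 (0.45 and 0.39) passed in both settings but not with the brightest. Pcdh8 minus Pcdh17 passed with the mean alone (0.47). Pcdh10 minus Pcdh19 passed with the second brightest alone (0.32, exact permutation test, adjusted p = 0.0485). Pcdh10 minus Pcdh17 was 0.34 with the mean (exact permutation test, p = 0.0498, adjusted p = 0.127). These settings were chosen after the data had been seen.

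**Figure D3:**
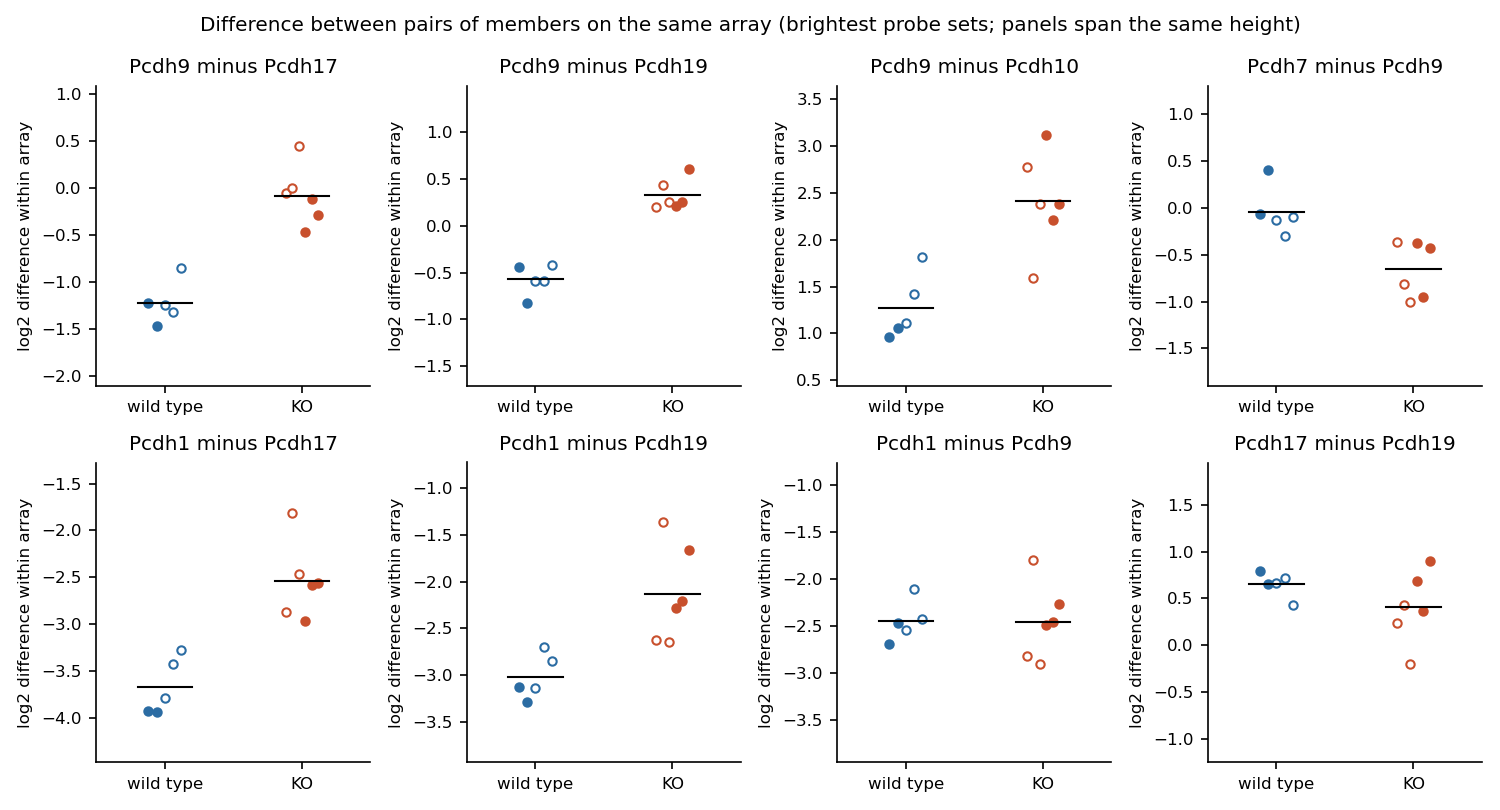
Difference in log2(signal + 16) between the brightest probe sets of 2 genes on the same array (vertical axis, all panels of equal span) for 8 of the 28 pairs, with 5 wild type (blue) and 6 KO arrays (red), filled for the batch of higher poly-A controls, and lines at group means. The groups are apart for Pcdh9 minus Pcdh17 and Pcdh9 minus Pcdh19, whose means shift by 1.14 and 0.90, and they overlap for Pcdh1 minus Pcdh9 and Pcdh17 minus Pcdh19.

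By the root mean square difference of centred log2 values over the 11 arrays, the profiles most like that of Pcdh9 among 15132 genes were those of Efna5, Gramd1b and Sash1, each at 0.11 against a median of 0.36. Efna5 encodes ephrin-A5, an axon guidance ligand. Their log2 changes were 0.39, 0.47 and 0.42 (limma, adjusted p = 0.438, 0.328 and 0.209).

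Other genes of the pathway were counted from lists, each gene by its brightest tested probe set. Among 13 other protocadherin-related genes, 0 rose and 0 fell, with a median log2 change of 0.048, and at an unadjusted p under 0.05 there were also 0 (limma). Pcdh11x, a delta1 protocadherin outside the 8 genes, was at 0.25 on the log2 scale (limma, adjusted p = 0.951). The smallest p was that of Cdhr1, a photoreceptor cadherin, at -0.37 (limma, adjusted p = 0.802). Among 18 intracellular partners of delta protocadherins, which include the subunits of the WAVE complex that drives actin branching, 0 rose and 0 fell, and 0 had an unadjusted p under 0.05 (limma), with a median of 0.067. Brk1, a small WAVE subunit, came first at 0.17 (limma, adjusted p = 0.818). Among 18 classical cadherins and catenins the counts were again 0 and 0, with 0 at an unadjusted p under 0.05 (limma) and a median of 0.052, and Ctnna1, alpha-catenin, came first at 0.13 (limma, adjusted p = 0.776).

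Cell type markers moved beside these values. Of 14 mature OSN markers, 6 fell (Stoml3, Ncam2, Cnga4, Umodl1, Gng13 and Gnal, with log2 changes from -1.21 to -0.69), 0 rose and 8 did not pass, and the median was -0.51 (limma). Each was read on its brightest probe set. Of all their tested probe sets, 2 of 2 passed for Stoml3, 1 of 3 for Ncam2 and for Gnal, and 1 of 2 for Gng13. Cnga4 and Umodl1 had 1 tested probe set each. At an unadjusted p under 0.05, 9 of the 14 markers were lower and 1 was higher, Reep1 at 0.46 (limma, adjusted p = 0.156), which is named after its value was seen. The summed signal of the 14 markers was 19189 to 24387 on the wild type arrays and 12899.6 to 18561 on the KO arrays, without overlap. Bright genes weigh most in it, such as Stoml3 with means of 4673 in wild type and 2048 in KO. Lower in the KO like this sum were Pcdh17, Pcdh19, the second brightest probe set of Pcdh7 and the brightest of Pcdh10. On each of these probe sets, unlike the sum, the groups overlapped. Of 16 immature OSN markers 1 rose, Stmn4 by 1.48 (limma, adjusted p = 0.000857), with sums of 54186 to 67969 in wild type and 53847 to 71329 in KO. Of 11 precursor markers 2 rose, the proneural factors Neurog1 by 0.91 and Neurod1 by 0.66 (limma, adjusted p = 0.0364 and 0.0214), with sums of 18462 to 26030.2 and 20327 to 28409.5. Neurog1 and Neurod1 each passed on 1 of 2 tested probe sets. The part of all these markers in the protocadherin values was not tested.

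Of 9 olfactory ensheathing glia markers none passed, but 8 had estimates above 0 and 4 an unadjusted p under 0.05 (limma), with a median of 0.37 and sums of 11267 to 15973 in wild type and 12599 to 23624 in KO. Fabp7, the glial fatty acid binding protein, read 3885 ± 1369 (SD, n = 5) and 7417 ± 2903 (SD, n = 6) (limma, adjusted p = 0.405). Like Pcdh9 and Pcdh1, the glia markers mostly had higher estimates in the KO, though their sums overlapped between the groups. The same held for the precursor markers, with 10 of 11 above 0. It also held for the immature OSN markers, with 13 of 16 above 0. In each of these 2 lists 4 genes were higher and 0 lower at an unadjusted p under 0.05 (limma). Estimates mostly above 0 were not particular to these lists, and the median over all tested probe sets was 0.047. Above 0 were 8 of 11 sustentacular, 6 of 8 horizontal basal cell, 8 of 10 endothelial and 7 of 14 mesenchyme markers. So were 14 of 18 intracellular partners and 14 of 18 classical cadherins and catenins. The part of any of these lists in the values of Pcdh9 and Pcdh1 was not tested. No gene passed among 11 sustentacular, 8 horizontal basal cell, 14 mesenchyme and 10 endothelial markers, with medians of 0.057, 0.061, 0.029 and 0.13 and with 0, 1, 2 and 0 genes at an unadjusted p under 0.05 (limma). The genes of smallest p in these lists were Aldh1a7 (-0.20), Krt15 (-1.22), Pdgfra (0.41) and Kdr (0.34).

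The estimates were followed over 26 or 27 alternative settings per probe set. Direction did not change in any of them for the probe sets of Pcdh1, Pcdh9, Pcdh17 and Pcdh19, for the second brightest of Pcdh7 and for the 2 brightest of Pcdh10. The change of Pcdh9 ran from 0.34 to 0.62 on its brightest and from 0.32 to 0.62 on its second brightest probe set, both lowest with hybridization control scaling, and from -0.81 to -0.20 on its dim probe set. For Pcdh17 the ranges were -0.80 to -0.37 and -0.64 to -0.34, and for Pcdh19 they were -0.55 to -0.25, -0.70 to -0.34 and -0.81 to -0.25. The brightest probe sets of Pcdh9 and Pcdh17 and the second of Pcdh19 each passed the threshold in 3 alternatives.

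**Figure D4:**
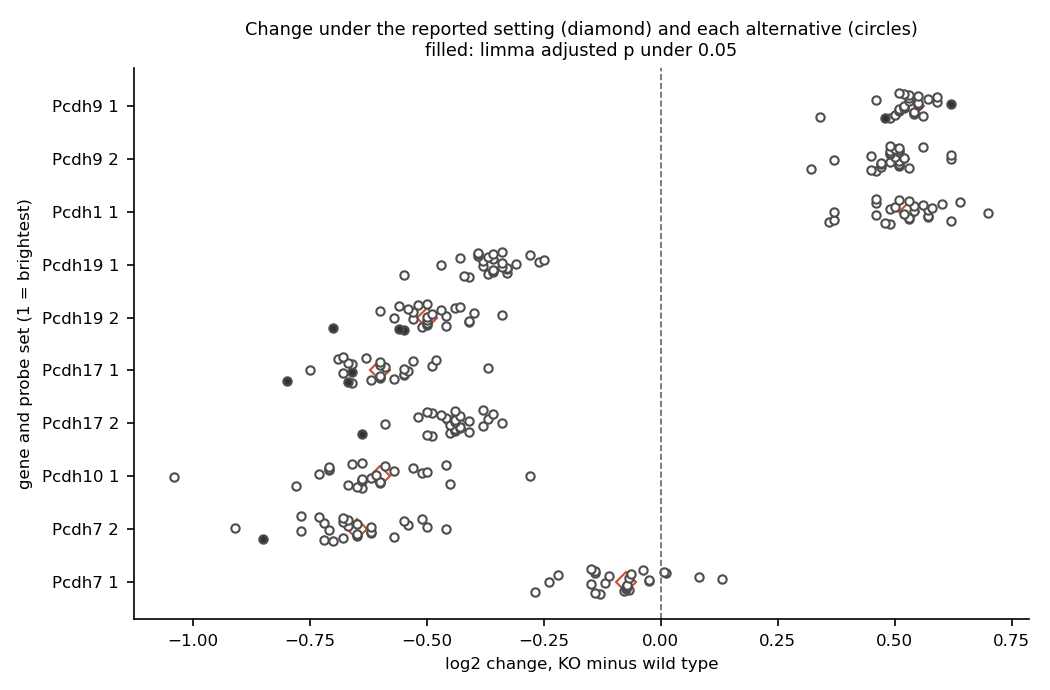
Log2 change (KO minus wild type, horizontal axis) of 10 probe sets under the reported setting (diamonds) and each alternative (circles), with filled symbols where the limma adjusted p is under 0.05. The 2 bright Pcdh9 probe sets and Pcdh1 stay to the right of 0 and Pcdh17, Pcdh19, Pcdh10 probe set 1 and Pcdh7 probe set 2 to the left, while Pcdh7 probe set 1 lies on both sides (-0.27 to 0.13).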

How the data were processed

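Per the study's methods, biotinylated cRNA was made by 2 cycles of amplification and hybridized to the arrays. For each probe set of an array the authors deposited 1 intensity, scaled linearly to GAPDH with the scanner maker's software (GCOS, as the submitters' processing notes call it). A group difference in GAPDH would therefore move every signal. Of 45101 probe sets, 64 controls and those with a mean signal under 20 were left out, which left 33662. Intensities were taken as log2(signal + 16), and KO was compared with wild type with limma 3.58.1 under R 4.3.3, by lmFit followed by eBayes, with trend = TRUE and no covariate. P-values were adjusted over all 33662 by Benjamini-Hochberg, with a threshold of 0.05. The fold change of dim probe sets is understated by the pseudocount. Differences within arrays were tested by exact two-sided permutation (Python 3.11.15, numpy 2.4.6), and the steps were tested on simulated data. The number of arrays limits the precision.

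Symbols came from the platform annotation (34958 probe sets with 1 symbol, 932 with several, 9211 with none). RefSeq promoter windows of 7 members were searched, and that of Pcdh1 was not used here. All 8 members with each probe set, Bcl11b, the genes past the threshold in each list (or the 1 of smallest p) and the 3 profiles most like the member of smallest p were named. The picked tissue markers (Omp, Gap43, Cyp2g1), Pcdh11x and Reep1 lie outside this rule. The members and lists were chosen with earlier results of these data known. Alternatives were other scalings (array median, quantile, hybridization controls), pseudocounts of 1 and 64, no filter or a minimum of 100, no trend, sex, batch or the GAPDH ratio as covariates, the replicate number as a block, gene means, single batches, and leaving out arrays.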

Additional observations from a re-analysis of the deposited data

Results flagged for a closer look

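Of 42 groups of arrays of member probe sets, 1 held an array that stood apart by Dixon's test, where chance alone gives about 1 in 20. On the second brightest Pcdh9 probe set KO 5 read 504.4, and the next KO array read 587.6. KO 5 was also the KO array that overlapped with wild type there, while on the brightest Pcdh9 probe set it read 699.3.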

How the results depend on the processing

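The number of probe sets past the threshold was 153 (53.6% higher in the KO). It was 293 with quantile normalization (41.0% higher), 186 with array median scaling (48.4% higher), 348 with hybridization control scaling (17.0% higher), 31 and 39 within the batches of higher and lower poly-A controls (61.3% and 74.4% higher), and 284 without KO 2 and KO 3, the pair with the top GAPDH 3'/5' ratios (71.8% higher). It ran from 85 (without WT 3) to 213 (without KO 2) when 1 array was left out. Scaling on hybridization controls shifted the median of all tested probe sets, 0.0473 on the log2 scale, down to -0.132. The brightest Bcl11b probe set kept its call in every alternative.

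The count of called member probe sets, 0, became 1 with array median scaling (Pcdh19 probe set 2), 3 with quantile normalization (Pcdh9 and Pcdh17 probe sets 1 and Pcdh19 probe set 2) and 4 with hybridization control scaling (Pcdh7 and Pcdh19 probe sets 2 and both of Pcdh17). It became 1 with the batch as covariate (Pcdh17 probe set 1), 1 with the GAPDH 3'/5' ratio as covariate and 1 without KO 2 and KO 3 (Pcdh9 probe set 1 in both). It was 0 whichever single array was left out. Pairs of probe sets that disagreed went from 0 to 1 with a pseudocount of 64. The 9 calls in the gene lists became 5 without the intensity trend, and 4 and 1 within the batches, and ran from 5 (without WT 1 or WT 3) to 10 (without KO 2) when 1 array was left out. The 11 shifted pairs of members became 7 with the GAPDH 3'/5' ratio as covariate and 8 to 11 with 1 array left out. They became 0 with males only, which also served as the sex covariate, where 12 had an unadjusted p under 0.05, 0.00794 is the smallest p possible and the shifts were of like size (0.85 for Pcdh9 minus Pcdh19, 1.06 for Pcdh9 minus Pcdh17 and 1.12 for Pcdh1 minus Pcdh17). They were 0 within the batches, where no p under 0.1 can be reached. With the second brightest probe set for each member, chosen after seeing the data, Pcdh7 minus Pcdh17 was -0.21.

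The labels number the replicates of both groups. Same-numbered arrays did not deviate together (correlations from -0.283 to 0.0085). This gave no sign that the numbers pair the mice, but such correlations cannot exclude a pairing. With the replicate number as a block, the counts were 92 probe sets (67.4% higher), 0 member probe sets, 4 list genes and 0 pairs of members. That last count was fixed in advance, since no p under 0.0625 in a two-sided test is possible with 5 pairs. Under that block Pcdh7 probe set 3 was -0.0043 and Pcdh18 probe set 3 was -0.19.

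Estimates near 0 changed sign, and the cause was not tested. Pcdh18 probe set 1 was -0.0015, -0.0069 and -0.15 and Pcdh18 probe set 3 was -0.053, -0.037 and -0.13 with array median, quantile and hybridization control scaling. Under the last, Pcdh7 probe set 3 was -0.028 and Pcdh10 probe set 3 was -0.11. Pcdh18 probe set 3 was -0.0066 with a pseudocount of 1, and -0.26 with sex as covariate or males only, where Pcdh8 probe set 2 was 0.00071. With the batch as covariate Pcdh10 probe set 3 was -0.0017 and Pcdh18 probe set 3 was -0.0046. Within the batch of lower poly-A controls Pcdh7 probe set 3 was -0.46, Pcdh8 probe sets 1 and 2 were 0.091 and 0.09, Pcdh10 probe sets 3 and 4 were -0.089 and 0.014, and Pcdh18 probe sets 1 and 3 were -0.14 and -0.39. With the GAPDH 3'/5' ratio as covariate Pcdh8 probe set 2 was 0.0014 and Pcdh10 probe set 4 was 0.0068. Without KO 2 and KO 3 Pcdh7 probe set 1 was 0.13, Pcdh8 probe sets 1 and 2 were 0.027 and 0.17, Pcdh10 probe set 4 was 0.098 and Pcdh18 probe set 2 was 0.17. As the mean of its probe sets Pcdh18 was -0.024. With 1 array left out, Pcdh7 probe set 1 ran from -0.22 to 0.082 and probe set 3 from -0.11 to 0.35, Pcdh8 probe set 1 from -0.17 to 0.029 and probe set 2 from -0.15 to 0.10, Pcdh10 probe set 3 from -0.15 to 0.21 and probe set 4 from -0.091 to 0.13, and Pcdh18 probe sets 1, 2 and 3 from -0.065 to 0.23, from -0.25 to 0.052 and from -0.27 to 0.20.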
